A study of Homo sapiens with 12 samples.

Results

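The histone genes were examined in WM35, a human melanoma cell line, on 1-colour Illumina BeadChip arrays. Members were the probes whose gene symbol, in its current or older form, is that of a linker histone H1, a core histone H2A, H2B, H3 or H4, or macroH2A. This name rule found 99 probes of 84 genes, and 61 probes of 53 genes were detected at a detection p-value under 0.05 on at least 2 of the 12 arrays. The same filter kept 24325 of 47230 probes in the whole series, and the kept probes with a gene symbol stood for 12131 genes. Of the kept members, 44 probes of 41 genes were replication-dependent histone genes (75 probes of 68 genes before the filter) and 17 probes of 12 genes were variant histones (24 probes of 16 genes before it). A member that was high only after treatment could pass this filter through the treated arrays alone, so for each direct comparison of an LTM group with histone calls, counts on 12 or on 9 arrays are also given over the probes detected on each array of the group compared against. The interaction of drug and time has no such count.

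Cells had been treated with lactimidomycin (LTM) for 24 h on 2 arrays or for 8 h on 3 arrays, with trifluridine (TFT) for 24 h on 2 arrays or for 8 h on 3 arrays, or with DMSO, the vehicle, on 2 control arrays. Doses were the IC75, a concentration that inhibits by 75%, as found earlier over 72 h. Vehicle treatment lasted 8 h or 24 h, and which applies to each control array is not given in the labels. Lactimidomycin blocks the elongation step of protein synthesis on the ribosome. Trifluridine is a thymidine analogue that is built into DNA and whose phosphate blocks thymidylate synthase. The series was designed to derive drug response signatures in this cell line. All arrays came from 1 cell line on 1 chip, and nothing in the labels tells separate cultures from repeats of one culture. The p-values therefore measure the spread between these samples only, which may be technical.

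Histones package DNA into nucleosomes. Replication-dependent histone genes lie in clusters, are transcribed mainly in S phase, and give short mRNAs that end in a stem-loop bound by SLBP in place of a poly(A) tail. The stem-loop mRNAs are degraded when DNA synthesis stops. Variant histone genes mostly lie alone and are expressed through the cell cycle, mostly as polyadenylated mRNAs. They encode proteins placed at defined sites, such as H2A.X at DNA breaks, H2A.Z at promoters and H3.3 in transcribed chromatin. The labels describe an Eberwine amplification, which primes on poly(A) tails. A higher intensity of a replication-dependent gene can therefore come from more mRNA or from a larger tailed share of it, and these cannot be told apart in these data. Likewise, fewer cells of a kind and less RNA per cell cannot be told apart in RNA from a whole culture.

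Of the 9 melanocyte lineage markers on the array, MITF, SOX10, ERBB3 and EDNRB were detected on all 12 arrays, while MLANA, TYR, TYRP1 and S100B were detected on 0 arrays. Keratinocyte markers KRT5, KRT14 and KRT1, the blood markers PTPRC and CD3E, and the endothelial markers CDH5 and VWF were also detected on 0 arrays, and the monocyte marker CD14 was detected on all 12. Each of the 4 fibroblast markers was detected on some arrays but not on all. The same held for the remaining melanocyte lineage marker and for the endothelial marker PECAM1. The arrays detected 19485 to 20551 probes each, and their mean signal was 314.6 to 415.4.

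Before any comparison, 3 arrays stood apart from their labels. Over all kept probes, with each probe centred over the 12 arrays, the first array labelled LTM 8 h had correlations of -0.46 and -0.39 with its own group, and its best match was TFT 24 h replicate 2 (0.75). For TFT 8 h replicate 3 the correlations were -0.49 with both arrays of its own label, 0.73 with LTM 8 h replicate 2 and 0.70 with LTM 8 h replicate 3. The array TFT 24 h replicate 1 matched its partner at 0.44 and both of the first TFT 8 h arrays at 0.66. Over the 61 histone probes, which are part of the same arrays, the correlation of LTM 8 h replicate 1 with LTM 8 h replicate 2 was -0.75 and that of TFT 8 h replicate 3 with LTM 8 h replicate 2 was 0.81. On the histone probes TFT 24 h replicate 1 correlated at 0.87 with TFT 24 h replicate 2, at 0.86 with TFT 8 h replicate 1 and at 0.90 with TFT 8 h replicate 2. Each comparison is given for the 12 arrays as labelled and for the 9 arrays without these 3. There TFT 24 h is left with 1 array that is assumed to vary like the other groups. The 3 arrays were left out by their expression values, histone probes included, which lowers the spread. SE and p-values on 9 arrays are therefore likely too small.

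The promoter of a replication-dependent histone gene is short and built from a few elements, and the 150 bases before the annotated start are shown for the genes with the largest change and for 2 variants. The 6 replication-dependent promoters printed are those of the leading genes H2AC6, H2BC18, H2BC5, H4C8 and H4C14, and of H2BC11, which shares its upstream region with H2AC11. Sequences are from RefSeq (GRCh38.p14), 5′ to 3′ on the strand of the gene, and capitals mark matches to the TATA box (letters TATAAA), the CCAAT box and the octamer (letters ATTTGCAT), each searched on both strands so that a reverse match appears as its complement.
H2AC6 (chr6:26124022-26124171, plus strand): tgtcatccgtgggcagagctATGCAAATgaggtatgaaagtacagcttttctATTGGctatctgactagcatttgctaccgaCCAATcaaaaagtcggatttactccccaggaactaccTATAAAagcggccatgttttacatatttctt
H2BC11 (chr6:27132796-27132945, minus strand): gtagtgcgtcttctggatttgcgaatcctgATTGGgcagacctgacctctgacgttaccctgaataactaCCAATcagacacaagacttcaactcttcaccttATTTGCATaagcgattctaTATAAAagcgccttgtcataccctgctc
H2BC18 (chr1:149812371-149812520, minus strand): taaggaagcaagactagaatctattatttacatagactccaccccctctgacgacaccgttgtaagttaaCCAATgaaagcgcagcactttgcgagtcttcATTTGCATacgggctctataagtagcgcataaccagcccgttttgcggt
H2BC5 (chr6:26157971-26158120, plus strand): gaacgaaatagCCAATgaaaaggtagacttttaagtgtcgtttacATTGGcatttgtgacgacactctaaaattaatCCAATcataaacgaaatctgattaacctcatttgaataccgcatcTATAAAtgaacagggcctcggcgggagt
H4C8 (chr6:26285535-26285684, minus strand): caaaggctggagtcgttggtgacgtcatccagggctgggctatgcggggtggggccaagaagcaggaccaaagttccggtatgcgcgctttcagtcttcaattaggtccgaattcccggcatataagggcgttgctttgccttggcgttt
H4C14 (chr1:149832507-149832656, plus strand): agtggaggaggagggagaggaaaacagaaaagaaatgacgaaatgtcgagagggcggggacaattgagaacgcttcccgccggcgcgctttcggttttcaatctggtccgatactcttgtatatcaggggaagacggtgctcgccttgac
H2AX (chr11:119095466-119095615, minus strand): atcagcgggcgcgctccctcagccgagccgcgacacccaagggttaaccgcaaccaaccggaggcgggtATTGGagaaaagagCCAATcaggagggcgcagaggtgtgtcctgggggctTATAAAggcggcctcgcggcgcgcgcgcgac
H3-3A (chr1:226061681-226061830, plus strand): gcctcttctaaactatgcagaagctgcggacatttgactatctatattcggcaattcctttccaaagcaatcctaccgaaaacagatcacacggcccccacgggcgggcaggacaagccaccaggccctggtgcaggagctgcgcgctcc
In the window of H2AC6 the octamer match starts 130 bases before the start, the CCAAT matches 98 and 68 bases before it and the TATAAA match 31 bases before it. H2BC11 has the octamer nearer, 47 bases before the start, with TATAAA at 28 bases. The 150 bases shown for H4C8 and H4C14 hold none of the 3 motifs in these letters. Neither do those of H3-3A, which has a CCAAT match further upstream. The windows of H4C14 and its neighbouring copy H4C15 were the same at 150 of 150 bases, so the promoter shown for one is also that of the other.

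Over the 250 bases before the start, TATAAA was found in 65.1% of 63 replication-dependent genes with a RefSeq promoter, CCAAT in 84.1% and the octamer ATTTGCAT in 39.7%. The shares among all 27305 promoters were 11.1%, 33.0% and 1.7%. The octamer match was present in 68.8% of the 16 H2A promoters and 76.5% of the 17 H2B promoters, in 9.1% of the 11 H3 promoters and in 0% of the 13 H4 promoters. Among the 14 variant genes, TATAAA was found in 35.7%, CCAAT in 78.6% and the octamer in 7.1%. Genes that rose after 24 h of LTM and genes without a call both held each motif. TATAAA was held by 65.2% of 23 genes that rose and by 68.8% of 16 genes without a call, and CCAAT by 78.3% and 87.5%. The octamer was in 7 of the 23 genes that rose and in 8 of the 16 without a call. A match of letters is a description of the window only, and 77 of the 84 member genes had an entry in the promoter table.

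After 24 h of LTM, many replication-dependent histone probes were higher than in control and most variant histone probes were lower. Of 44 replication-dependent probes, 26 rose and 0 fell at a Benjamini-Hochberg adjusted p under 0.05 in limma. The median log2 fold change of the 44 was 1.03, with fitted values for probes undetected in control. By such values 22 of the 26 rose at least 2-fold. Of the 25 probes detected on both control arrays, 14 rose at least 2-fold. Of 17 variant probes, 2 rose and 10 fell, with a median of -0.90. These probes stand for 12 genes. They include several probes each of H3-3A and MACROH2A1, and 2 of H3P6, a pseudogene of H3-3A. Such probes are each counted but are not separate evidence. In this comparison 20.0% of all kept probes rose and 20.9% fell, and the median of all probes was -0.05. On the 9 arrays, 31 replication-dependent probes rose and 1 fell (H3C6, detected on neither LTM 24 h array and at least 1.29-fold lower than in control), while 2 variant probes rose and 11 fell, against 26.1% of all probes rising and 28.2% falling. With 1 array of either group left out, 20 to 23 replication-dependent probes rose and 0 fell. The count of variant probes that fell was less steady, at 2 without LTM 24 h replicate 2, 3 without control replicate 2, 4 without control replicate 1 and 8 without LTM 24 h replicate 1.

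Detection in control split the replication-dependent probes. On both control arrays 25 of them were detected, and of these 15 rose and 0 fell, and the median of their log2 fold changes was 1.54. Among all 18447 probes detected on both control arrays, 20.8% rose and 27.4% fell. On the 9 arrays 19 of these 25 rose and 1 fell, where 27.5% of the 18447 probes rose and 36.7% fell. Another 5 probes were detected on 1 control array, and 2 of them rose. The remaining 14 were detected on neither, and 9 of these rose by lower bounds of at least 1.2-fold to at least 32.3-fold. For such a probe the bound is the mean of the LTM 24 h arrays over the lowest signal that counted as detected on the control arrays, with a dim probe that was above this limit taken at its measured value. On single arrays, 39 replication-dependent probes were detected on each LTM 24 h array, against 26 and 29 on the control arrays. Among variants, 16 probes were detected on both control arrays, with 2 that rose, 10 that fell and a median of -0.92.

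**Figure D1:**
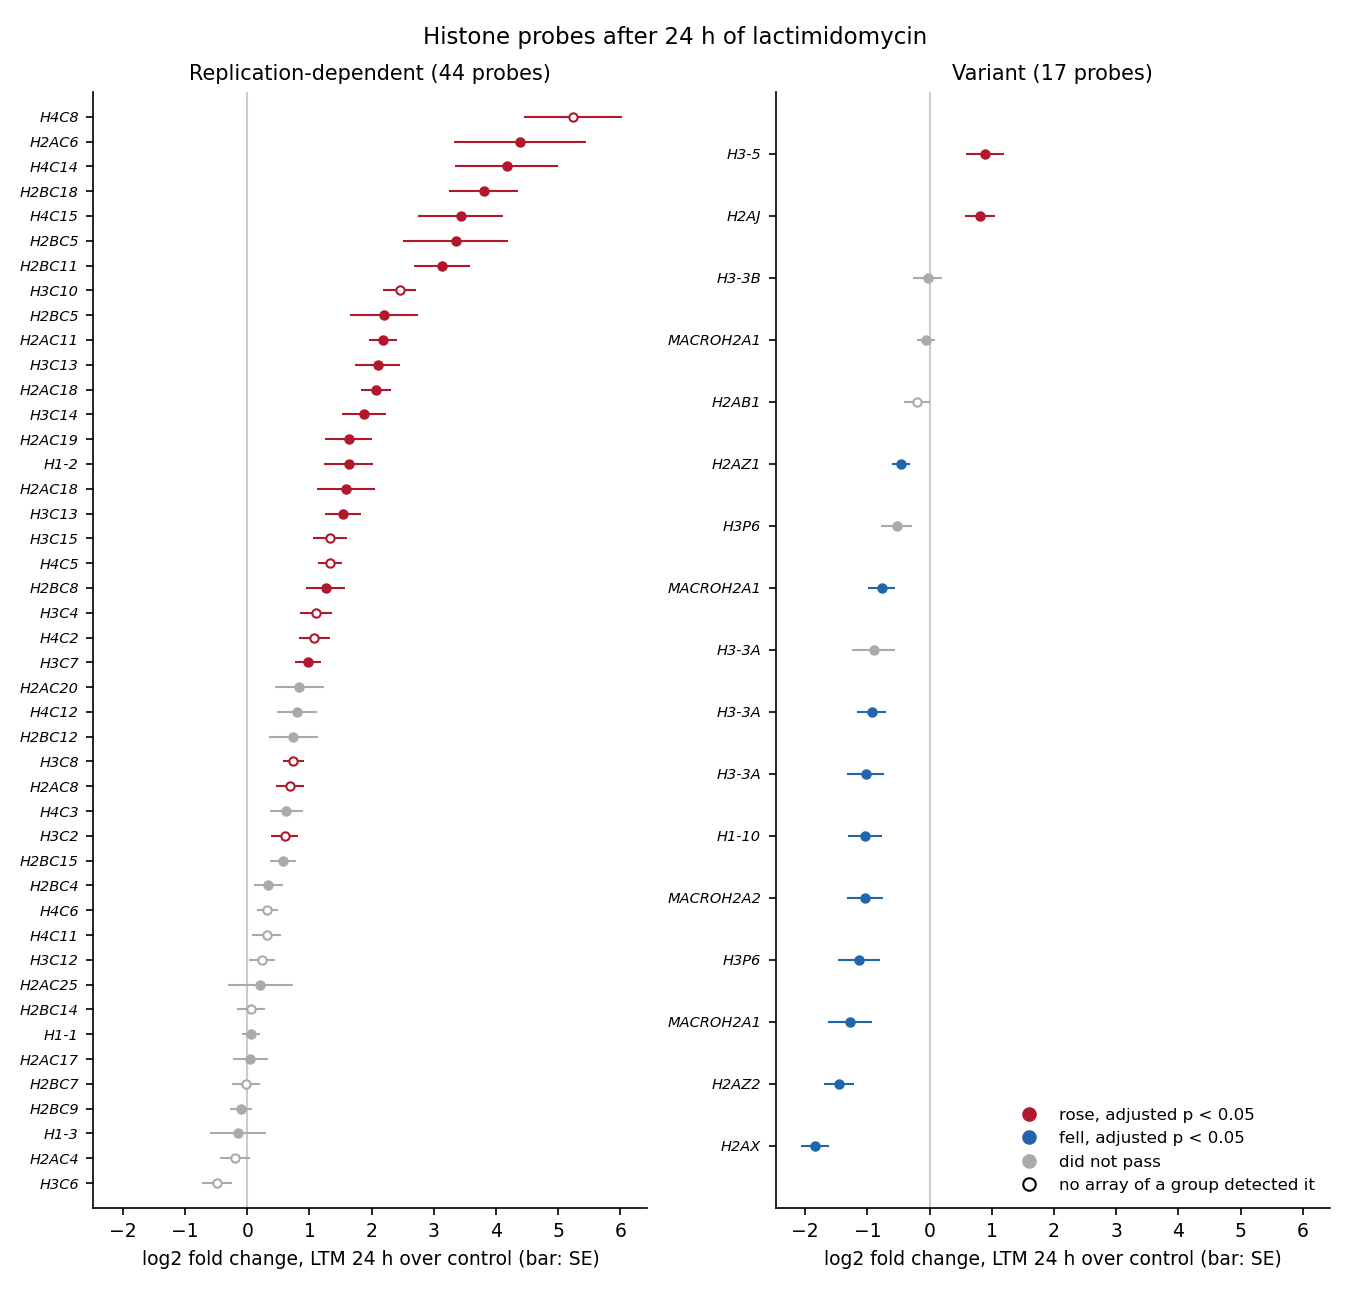
Log2 fold change of each kept histone probe, LTM 24 h over control, from limma on 12 arrays. Left, 44 replication-dependent probes; right, 17 variant probes. Points are fold changes and bars their SE; red points rose, blue points fell and grey points did not pass an adjusted p of 0.05. Open points were detected on no array of LTM 24 h, of control or of both, so their position is a fitted value and not a measured fold; H4C8, the topmost of them, has a bound of at least 32.3-fold. Most variant points lie below 0.

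Every replication-dependent class held probes that rose, in a comparison where 20.0% of all kept probes rose. Probes of near-identical copies, such as H3C13 to H3C15 or H2AC18 and H2AC19, are each counted here but are not separate evidence. Of the H3 probes 9 of 11 rose (median log2 fold change 1.11), of the H2A probes 6 of 10 (1.22), of the H4 probes 5 of 9 (1.08), of the H2B probes 5 of 11 (0.74), and of the linker H1 probes 1 of 3 (0.06). These counts include the 9 probes that rose but were detected on neither control array. They are H3C2, H3C4, H3C8, H3C10, H3C15, H4C2, H4C5, H4C8 and H2AC8. The medians use fitted values for such probes, so the families cannot be ranked by them, and differences between families were not tested. The H1 probe that rose was H1-2, a main somatic linker histone, at 1.63 ± 0.40 (SE, adjusted p = 0.00752), while H1-1 was at 0.06 and H1-3 at -0.15 without a call.

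The 6 replication-dependent genes with the largest change in this comparison encode H4 (H4C8, H4C14, H4C15), H2A (H2AC6) and H2B (H2BC18, H2BC5), all core nucleosome proteins. They were chosen by the size of this change, so their values for LTM 24 h are a description. H4C8, an intronless gene at chr6:26285126-26285534 on the minus strand, had normalized log2 intensities of 10.13 and 9.74 on the LTM 24 h arrays, 5.01, 7.12 and 6.99 on LTM 8 h replicates 1 to 3, 4.55 and 4.78 on the TFT 24 h arrays, 4.77, 4.56 and 7.10 on TFT 8 h replicates 1 to 3, and 4.64 and 4.75 in control. It was detected on neither control array, so it was at least 32.3-fold higher after 24 h of LTM than in control (adjusted p = 0.00052). Both LTM 24 h arrays lay above all other arrays, and TFT 8 h replicate 3 lay with LTM 8 h replicates 2 and 3.

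H2AC6 (chr6:26124172-26124690, plus strand) had 10.80 and 10.32 on the LTM 24 h arrays, 6.12, 8.48 and 8.44 at LTM 8 h, 5.04 and 5.52 at TFT 24 h, 5.14, 4.99 and 8.63 at TFT 8 h, and 6.08 and 6.28 in control. Its log2 fold change for LTM 24 h was 4.39 ± 1.06 (SE, adjusted p = 0.00668). On 9 arrays, without the spread that the 3 arrays add, the same difference had an SE of 0.17. The TFT arrays other than TFT 8 h replicate 3 lay below both control arrays for this gene.

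H4C14 had 10.84 and 10.43 on the LTM 24 h arrays, 6.48, 8.78 and 8.68 at LTM 8 h, 6.25 and 6.51 at TFT 24 h, 6.66, 6.37 and 9.0 at TFT 8 h, and 6.37 and 6.55 in control, a difference of 4.17 ± 0.83 for LTM 24 h (SE, adjusted p = 0.00245). H4C15, the neighbouring copy on chromosome 1, had 9.48 and 9.03 on the LTM 24 h arrays, 6.20, 7.67 and 7.62 at LTM 8 h, 5.70 and 6.10 at TFT 24 h, 5.74, 5.21 and 7.74 at TFT 8 h, and 5.65 and 6.01 in control, a difference of 3.43 ± 0.69 (SE, adjusted p = 0.00257). Their near-identical mRNAs may be read by either probe, so the 2 genes are not separate evidence. The same holds for the copies H2AC18 and H2AC19 and for H3C13, H3C14 and H3C15, which also all rose.

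H2BC18 had 9.58 and 9.41 on the LTM 24 h arrays, 6.01, 7.20 and 7.18 at LTM 8 h, 5.23 and 5.86 at TFT 24 h, 5.64, 5.27 and 7.20 at TFT 8 h, and 5.83 and 5.55 in control. Its log2 fold change for LTM 24 h was 3.80 ± 0.55 (SE, adjusted p = 0.000434). H2BC5 had 9.30 and 8.81 on the LTM 24 h arrays, 5.69, 7.57 and 7.38 at LTM 8 h, 4.89 and 5.73 at TFT 24 h, 5.19, 4.71 and 7.76 at TFT 8 h, and 5.78 and 5.63 in control, a difference of 3.35 ± 0.85 (SE, adjusted p = 0.00883). A second H2BC5 probe gave 2.20 and also passed. In all 6 genes the LTM 24 h arrays lay above every other array, and LTM 8 h replicate 1 lay nearer to the control arrays than to LTM 8 h replicates 2 and 3. H2BC5 did not pass without LTM 24 h replicate 1 (3.11) or without control replicate 2 (3.28).

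**Figure D2:**
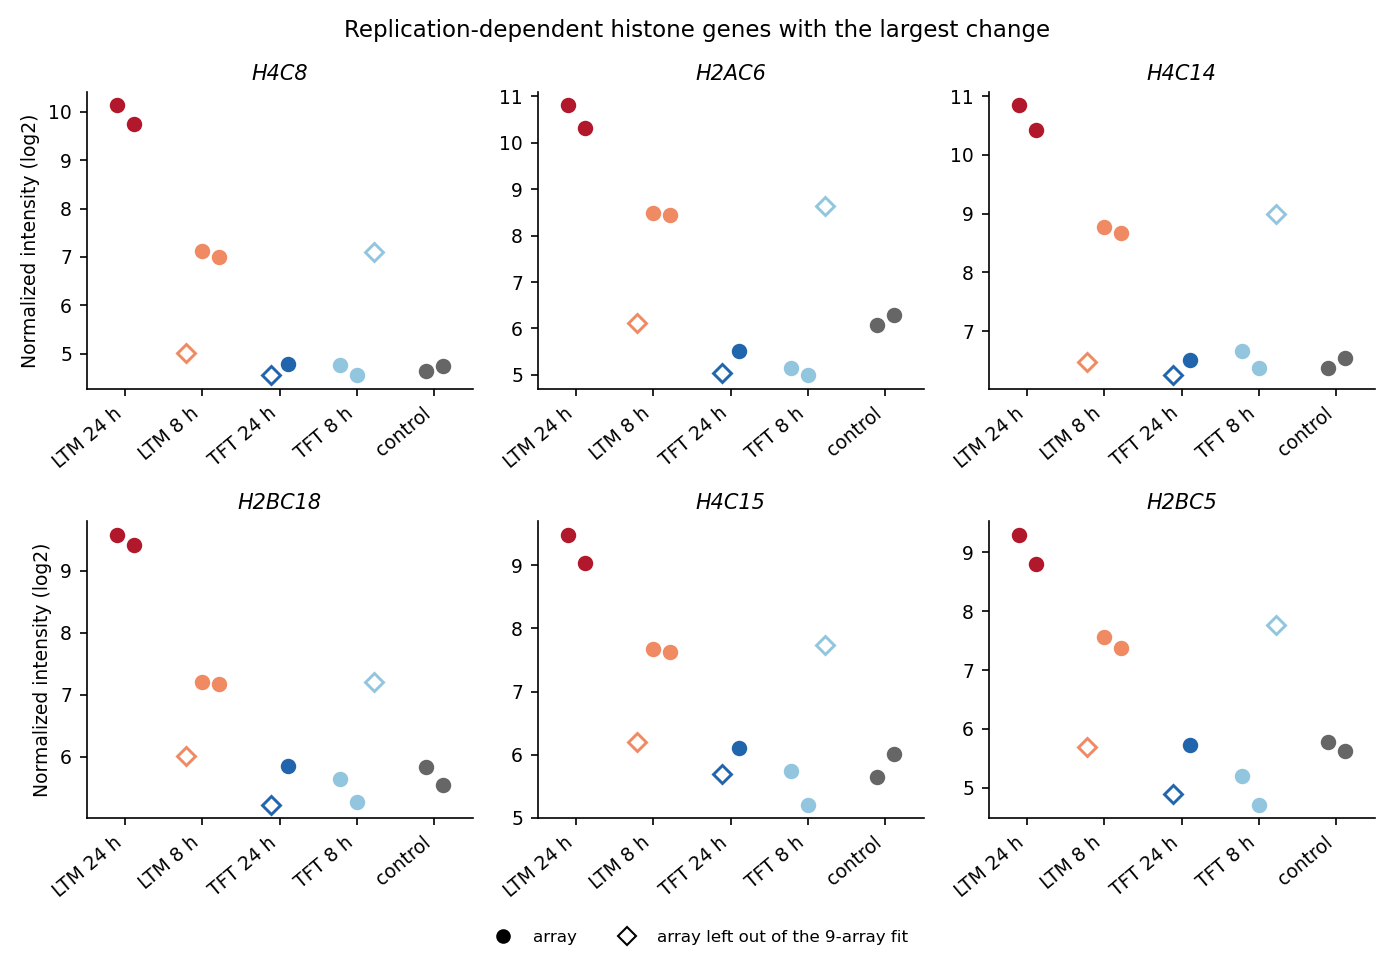
Normalized log2 intensity of H4C8, H2AC6, H4C14, H2BC18, H4C15 and H2BC5 on each array, by labelled group. Filled circles are the 9 arrays kept in both fits and open diamonds are LTM 8 h replicate 1, TFT 24 h replicate 1 and TFT 8 h replicate 3. The LTM 24 h arrays are highest in each panel, and the open diamond at TFT 8 h lies with the filled LTM 8 h circles.

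One further gene each of the H2B, H3 and H1 families was singled out after its values were seen. H2BC11 had 8.62 and 8.34 on the LTM 24 h arrays, 5.20, 6.59 and 6.26 at LTM 8 h, 4.89 and 4.98 at TFT 24 h, 5.18, 5.18 and 6.41 at TFT 8 h, and 5.43 and 5.26 in control, with a difference of 3.13 ± 0.45 for LTM 24 h (SE, adjusted p = 0.000417). The brighter of the H3C13 probes had 7.79 and 7.67 on the LTM 24 h arrays, 5.52, 6.38 and 6.49 at LTM 8 h, 5.45 and 5.49 at TFT 24 h, 5.52, 5.64 and 6.58 at TFT 8 h, and 5.75 and 5.51 in control, with a difference of 2.10 ± 0.36 (SE, adjusted p = 0.00106). H1-2 had 10.42 and 10.28 on the LTM 24 h arrays, 8.44, 9.47 and 9.64 at LTM 8 h, 8.69 and 8.54 at TFT 24 h, 8.52, 8.30 and 9.45 at TFT 8 h, and 8.71 and 8.73 in control. In all 3 genes the LTM 24 h arrays were the highest, and TFT 8 h replicate 3 was higher than the other TFT arrays.

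Other replication-dependent genes differed in whether they passed. H4C3, an H4 gene, had 14.73 and 14.80 on the LTM 24 h arrays, 14.25, 14.86 and 14.92 at LTM 8 h, 14.44 and 14.24 at TFT 24 h, 14.11, 13.97 and 14.67 at TFT 8 h, and 14.01 and 14.26 in control. Its difference of 0.63 for LTM 24 h did not pass on 12 arrays (adjusted p = 0.0825) and passed on 9 (adjusted p = 0.0028). Genes near background in control that rose included H3C10 (at least 4.72-fold higher), H3C15 (at least 1.99-fold) and H4C5 (at least 1.95-fold). No call was made for H2AC25, H2AC17, H2BC9, H1-1 or H1-3 on either set of arrays, and their log2 fold changes lay between -0.15 and 0.21.

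Neighbouring genes with opposite strands and a shared upstream region gave unequal values. The pair H2BC11 and H2AC11 on chromosome 6, with starts 248 bp apart, both rose, at 3.13 and 2.18 on the log2 scale, with H2AC11 detected on 1 of the 2 control arrays. H2BC8 and H2AC8, 233 bp apart, also both rose, H2BC8 by 1.26 and H2AC8, which was not detected in control, by at least 1.33-fold. H2BC4 and H2AC6, 246 bp apart, were at 4.39, a call, for H2AC6 and at 0.34, no call, for H2BC4, and H2BC4 was detected on 1 of the 2 control arrays. H3C4 and H2BC7, 223 bp apart, were both undetected in control, and H3C4 was at least 1.64-fold higher at LTM 24 h while H2BC7 had no call and no bound. The RefSeq span of H3C4 (2510 bp) extends to the start of H2AC7, the H2A partner of H2BC7, which did not pass the detection filter. The difference between partners of a pair was not tested, since levels of different probes are not comparable.

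By chromosome, 8 of 10 kept replication-dependent genes on chromosome 1 rose, at a median of 1.76 on the log2 scale. On chromosome 6, 15 of 31 rose, with a median of 0.69. Each gene was taken by its brightest probe, with fitted values for genes not detected in control. Of all kept probes, 20.0% rose. The chromosome 1 genes that rose include the copies H2AC18 and H2AC19, H3C13 to H3C15, and H4C14 and H4C15. Such copies are not separate evidence, and the difference between the chromosomes was not tested. Some of these genes are annotated with long transcripts that extend past the intronless unit. Of 7 kept genes whose RefSeq span was over 1000 bp (2510 to 29682 bp, among them H2BC18 and H2BC5), 4 rose, with a median of 1.11. Of 34 genes with a span of 387 to 776 bp, 19 rose, with a median of 0.82, and H4C8 (409 bp) and H2AC6 (519 bp) were among them.

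Most variant histones were lower after 24 h of LTM. H2AX, whose protein is phosphorylated at DNA breaks, is unusual in giving both a stem-loop and a polyadenylated mRNA. The gene lies at chr11:119093874-119095465 on the minus strand. It had log2 intensities of 7.97 and 7.73 on the LTM 24 h arrays, 8.96, 8.78 and 8.73 at LTM 8 h, 8.85 and 8.77 at TFT 24 h, 9.02, 9.01 and 8.33 at TFT 8 h, and 9.76 and 9.62 in control, and fell by 1.84 ± 0.23 on the log2 scale (SE, adjusted p = 0.00019). All 10 drug arrays lay below both control arrays, and the LTM 24 h arrays were the lowest.

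Both H2A.Z genes, whose protein marks promoters and enhancers, were lower. H2AZ2 had 4.83 and 4.95 on the LTM 24 h arrays, 6.14, 5.73 and 5.22 at LTM 8 h, 6.09 and 6.08 at TFT 24 h, 5.97, 5.90 and 5.71 at TFT 8 h, and 6.34 and 6.36 in control, a log2 fold change of -1.46 ± 0.24 for LTM 24 h (SE, adjusted p = 0.000894). It was detected on 1 of the 2 LTM 24 h arrays. H2AZ1 had 13.66 and 13.38 on the LTM 24 h arrays, 13.93, 13.84 and 13.87 at LTM 8 h, 13.85 and 13.85 at TFT 24 h, 13.81, 13.76 and 13.80 at TFT 8 h, and 13.90 and 14.04 in control. Its change for LTM 24 h was smaller, at -0.46 ± 0.15 (SE, adjusted p = 0.0311), and did not pass without LTM 24 h replicate 2, control replicate 1 or control replicate 2.

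The 2 genes that encode H3.3 gave unlike values. H3-3A had 12.78 and 12.74 on the LTM 24 h arrays, 13.67, 13.09 and 13.06 at LTM 8 h, 13.71 and 13.66 at TFT 24 h, 13.52, 13.65 and 13.08 at TFT 8 h, and 13.70 and 13.69 in control, a log2 fold change of -0.93 ± 0.23 (SE, adjusted p = 0.00824). Its other probes gave -1.03, a call, and -0.90, no call on 12 arrays and a call on 9. H3-3B, which encodes the same protein, had 10.94 and 11.12 on the LTM 24 h arrays, 10.32, 10.87 and 10.65 at LTM 8 h, 11.19 and 10.80 at TFT 24 h, 11.21, 10.89 and 10.69 at TFT 8 h, and 11.07 and 11.05 in control, a difference of -0.03 ± 0.23 (SE, adjusted p = 0.938). For H3-3A the LTM 24 h arrays lay below all others, while for H3-3B they overlapped the control arrays. Whether the change of H3-3A differed from that of H3-3B was not tested.

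Related sequences of H3.3 went both ways. H3P6, a transcribed pseudogene of H3-3A, had 12.30 and 11.93 on the LTM 24 h arrays, 13.32, 12.38 and 12.43 at LTM 8 h, 13.20 and 13.36 at TFT 24 h, 13.28, 13.23 and 12.41 at TFT 8 h, and 13.34 and 13.17 in control. Its log2 fold change was -1.14 ± 0.34 (SE, adjusted p = 0.0203), and a second, dim probe was at -0.53 without a call. H3-5, a retrocopy of H3-3B best known from testis, rose by 0.89 (adjusted p = 0.039). Their probes may also bind mRNA of the parent genes, so the values are uncertain as measures of these loci.

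H1-10, a linker histone made outside S phase, had 8.39 and 8.42 on the LTM 24 h arrays, 8.44, 9.31 and 9.13 at LTM 8 h, 8.24 and 8.57 at TFT 24 h, 8.48, 8.47 and 8.95 at TFT 8 h, and 9.39 and 9.50 in control. It fell by 1.04 ± 0.27 on the log2 scale after 24 h of LTM (SE, adjusted p = 0.0103). Here the TFT arrays other than TFT 8 h replicate 3, and LTM 8 h replicate 1, lay within the range of 8.24 to 8.57 together with the LTM 24 h arrays, and the difference of LTM 24 h from TFT 24 h was 0.00 ± 0.27 (SE, adjusted p = 0.993).

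The macroH2A variants carry a large macro domain and are known from silenced chromatin. MACROH2A2 had 7.90 and 7.80 on the LTM 24 h arrays, 8.84, 8.19 and 8.23 at LTM 8 h, 8.97 and 8.80 at TFT 24 h, 9.04, 8.92 and 8.14 at TFT 8 h, and 8.88 and 8.90 in control, a log2 fold change of -1.04 ± 0.29 (SE, adjusted p = 0.0149). The 3 kept MACROH2A1 probes disagreed, with -1.28 and -0.77, both calls, and -0.06, no call, for the brightest. H2AJ, an H2A variant with a polyadenylated mRNA, rose by 0.81 (adjusted p = 0.0189), with 9.06 and 8.97 on the LTM 24 h arrays against 8.19 and 8.23 in control. With 1 array left out in turn, the calls of H1-10, MACROH2A2, H3P6 and H3-3A were also lost in at least 1 case, with log2 fold changes that stayed at or below -0.92.

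**Figure D3:**
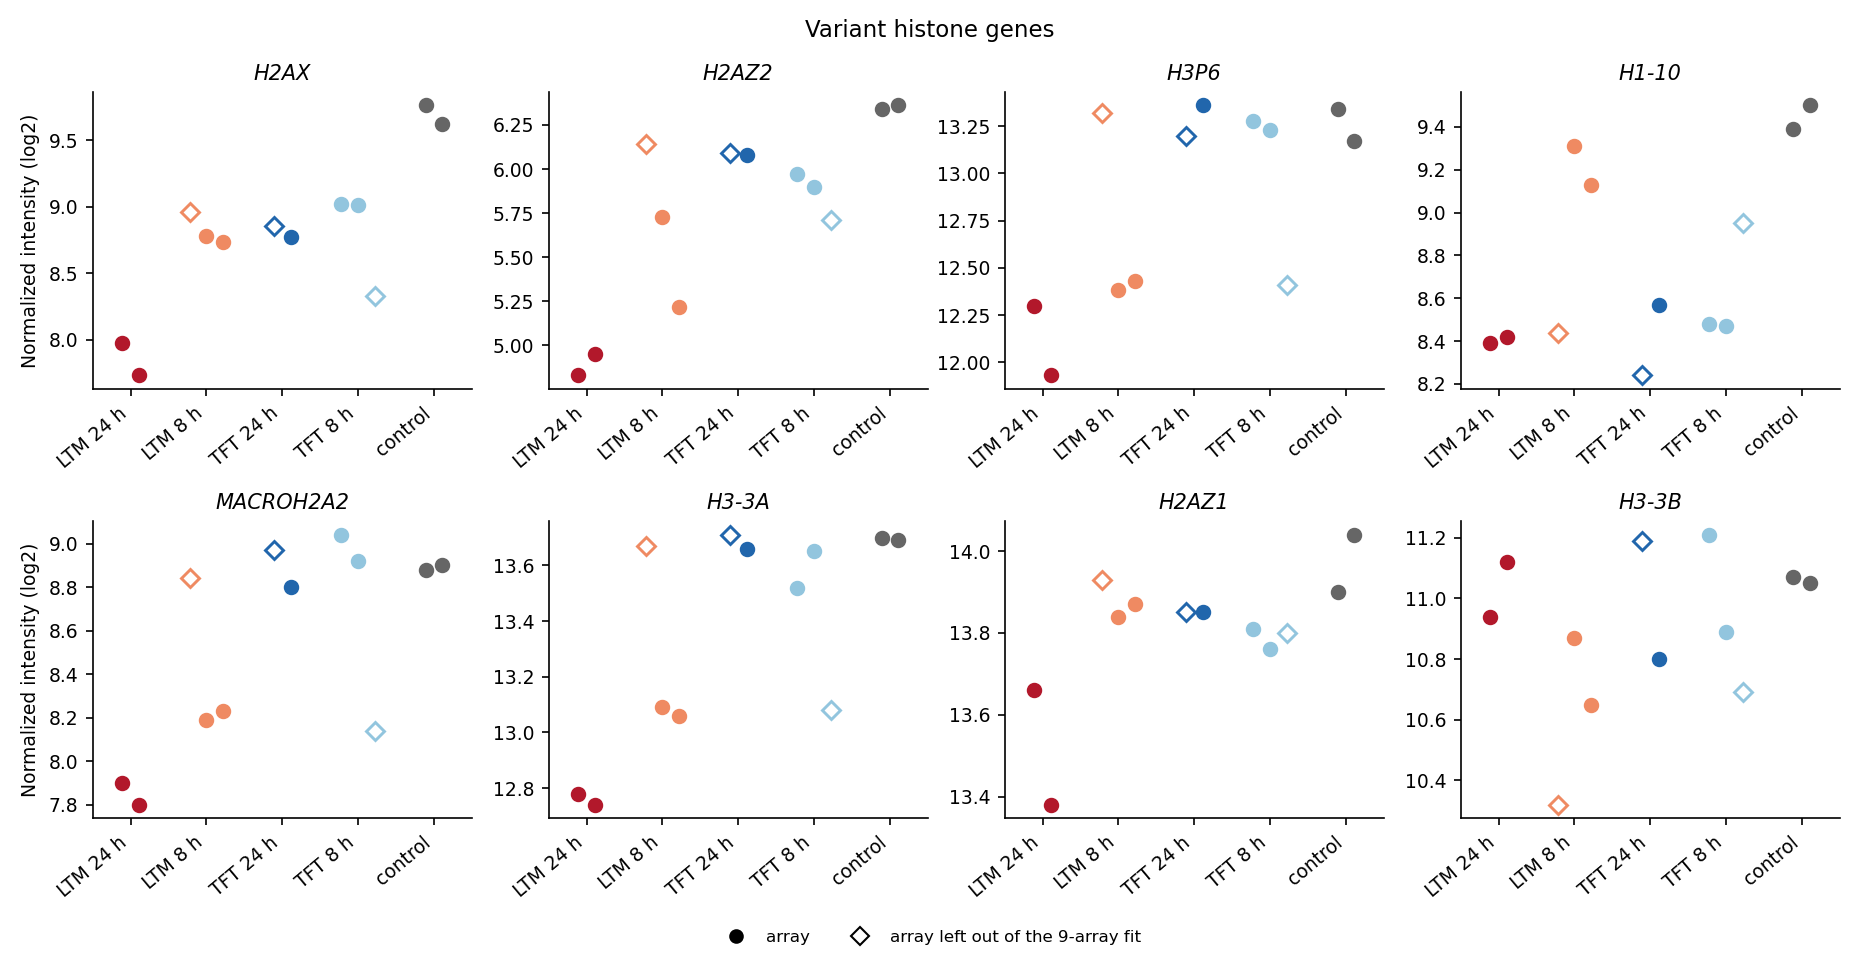
Normalized log2 intensity of 7 variant histone genes and the pseudogene H3P6 on each array, by labelled group, with symbols as in the plot of the replication-dependent genes. The LTM 24 h arrays are lowest in the panels of H2AX, H2AZ2, H3P6, MACROH2A2, H3-3A and H2AZ1, and overlap the control arrays for H3-3B. The vertical axes differ in range between panels.

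At 8 h of LTM the labelled group gave no calls and its arrays were split. On 12 arrays 0% of all probes rose and 0% fell in this comparison, and 0 of the 61 histone probes were called in limma. At an unadjusted p under 0.05 in limma were 6 histone probes, beside 3828 of all 24325 probes. LTM 8 h replicates 2 and 3 had replication-dependent medians of 0.41 and 0.45 relative to control and variant medians of -0.57 and -0.45, while replicate 1 had -0.08 and -0.10. On the 9 arrays, 19 replication-dependent probes rose and 0 fell, and 0 variant probes rose and 9 fell, against 14.4% of all probes rising and 15.4% falling. Of those detected on both control arrays, 15 of 25 replication-dependent probes rose and 0 fell, and 0 of 16 variant probes rose and 9 fell, where 16.3% of all such probes rose and 20.1% fell.

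In that 9-array comparison the leading genes were again H4 and H2A genes. H2AC6 rose by 2.28 ± 0.17 (SE, adjusted p = 1.95e-05) and H4C14 by 2.27 ± 0.17 (SE, adjusted p = 2.02e-05) at LTM 8 h on the log2 scale. H4C8, undetected in control, passed at an adjusted p of 1.2e-05. Among variants, H2AX fell by 0.94 ± 0.14 (SE, adjusted p = 0.00073), H2AZ2 by 0.87 ± 0.17 (SE, adjusted p = 0.00355) and H3-3A by 0.62 ± 0.12 (SE, adjusted p = 0.00428). H1-10 was at -0.23 and H2AZ1 at -0.12, neither a call. LTM 8 h replicate 1 was left out because of its expression, so the 9-array SE and adjusted p here are likely too small. The 2 LTM comparisons share the control arrays, so their likeness is no independent result.

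**Figure D4:**
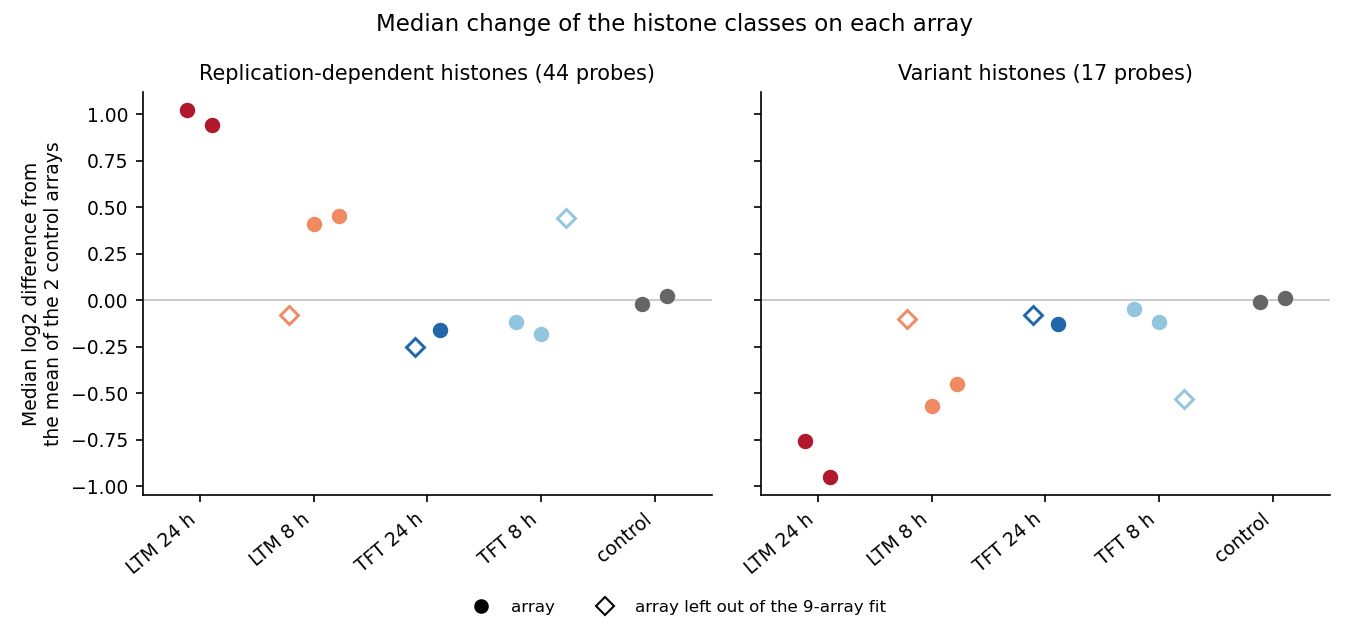
Median log2 difference from the mean of the 2 control arrays over 44 replication-dependent probes (left) and 17 variant probes (right), 1 point per array, by labelled group. Filled circles are the 9 arrays kept in both fits and open diamonds the other 3. The LTM 24 h arrays are at 1.02 and 0.94 on the left and at -0.76 and -0.95 on the right, and TFT 8 h replicate 3 lies at 0.44 and -0.53, beside the filled LTM 8 h circles.

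The change from 8 h to 24 h of LTM was tested directly. Of the replication-dependent probes 23 rose and 1 fell at LTM 24 h relative to LTM 8 h, and of the variant probes 1 rose and 2 fell, against 17.1% of all probes rising and 16.3% falling. Of those detected on all 3 LTM 8 h arrays, 13 of 22 replication-dependent probes rose and 1 fell, and 1 of 15 variant probes rose and 2 fell, where 18.8% of all such probes rose and 23.1% fell. The variant probe that rose was H2AJ, and those that fell were H2AX, at -0.98 ± 0.21 (SE, adjusted p = 0.00407), and H2AZ2. Without LTM 24 h replicate 2, 15 histone probes rose and 0 fell, so the calls of H2AX and H2AZ2 were lost, and without LTM 24 h replicate 1, 12 rose and 2 fell, against 24 and 3 on 12 arrays. On the 9 arrays the counts were 27 and 1 for replication-dependent probes and 1 and 5 for variants, with 21.5% of all probes rising and 21.8% falling. H4C8 was higher at LTM 24 h than at LTM 8 h by 3.56 ± 0.72 on 12 arrays (SE, adjusted p = 0.00296) and by 2.88 ± 0.16 on 9. The replication-dependent probe that fell was H3C6, an H3 gene, which was detected on neither LTM 24 h array and was at least 1.47-fold lower than at LTM 8 h (adjusted p = 0.0341).

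After trifluridine few or no histone probes passed the test. At TFT 24 h, 0 of 61 histone probes were called in limma on either set of arrays, and 7 were at an unadjusted p under 0.05 on 12 arrays and 11 on 9. On 12 arrays 0% of all probes rose and 0% fell, and on 9 arrays 0.317% rose and 0.0493% fell. The medians of the TFT 24 h arrays were -0.25 and -0.16 for replication-dependent probes and -0.08 and -0.13 for variants. The control arrays were at -0.02 and 0.02 for the first class and at -0.01 and 0.01 for the other. H2AX was at -0.88 ± 0.23 (SE, adjusted p = 0.898) on 12 arrays and at -0.92 ± 0.17 (SE, adjusted p = 0.058) on 9, which did not pass.

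At TFT 8 h, 0 histone probes were called on 12 arrays, where 0% of all probes rose and 0% fell. At an unadjusted p under 0.05 in limma were 4 histone probes, beside 2200 of all 24325 probes. Replicates 1 and 2 had replication-dependent medians of -0.12 and -0.18 and replicate 3 had 0.44. On the 9 arrays 0 histone probes rose and 6 fell, against 0.835% of all probes rising and 0.839% falling. They were the H2A genes H2AC25 at -1.13 ± 0.19 (SE, adjusted p = 0.0262), H2AC6 at -1.11 ± 0.17 (SE, adjusted p = 0.0191) and H2AC20 at -0.70 ± 0.13 (SE, adjusted p = 0.0331), and the variants H1-10 at -0.97, H2AX at -0.67 and H2AJ at -0.61. H2AC6 and H2AC20 were higher than control at LTM 8 h on the same 9 arrays.

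The drugs were compared at 24 h. Of the replication-dependent probes 29 rose and 1 fell at LTM 24 h relative to TFT 24 h, with a median of 1.37, and of the variant probes 2 rose and 9 fell, with a median of -0.65, against 19.9% of all probes rising and 20.3% falling. Of those detected on both TFT 24 h arrays, 14 of 18 replication-dependent probes rose and 1 fell, and 2 of 16 variant probes rose and 9 fell, where 20.6% of all such probes rose and 26.9% fell. The 10 falls over both classes numbered 1 without LTM 24 h replicate 2, 6 without LTM 24 h replicate 1, and 4 without either TFT 24 h array. On the 9 arrays the counts were 32 and 1, and 2 and 9, against 23.9% and 25.3%. H2AC6 differed by 5.29 ± 1.06 (SE, adjusted p = 0.00246) on 12 arrays and by 5.04 ± 0.21 (SE, adjusted p = 1.17e-06) on 9. H2AX differed by -0.96 ± 0.23 (SE, adjusted p = 0.00635) and H3-3A by -0.93 ± 0.23 (SE, adjusted p = 0.00868) on 12 arrays. This comparison uses the same LTM 24 h arrays as that with control.

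Whether the change from 8 h to 24 h differed between the drugs was tested as an interaction in the same model. On 12 arrays 16 replication-dependent probes had a higher change under LTM than under TFT and 2 variant probes a lower one, against 11.4% of all probes higher and 11.1% lower. The lower probes, H2AX and H2AZ2, were both lost when either LTM 24 h array or either TFT 24 h array was left out, and 11 to 13 higher probes were then called. On 9 arrays, where TFT 24 h is left with 1 array, the difference in change was 2.77 for H4C8 and -0.82 for H3C6. Among variants it was -0.66 for H2AX, -0.73 for H2AZ2 and -0.90 for H1-10. On 12 arrays H3C6 was at -0.79 and H1-10 at -0.32, neither a call.

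Genes that act on histone mRNAs or histones were taken as 4 lists, and each gene was represented by its brightest probe. Of 20 measured genes of histone gene transcription, 3′ end processing and decay, 7 rose and 5 fell after 24 h of LTM, at a median of 0.26 on the log2 scale, beside the shares of 20.0% and 20.9% of all probes given above. The largest were TUT7, a uridyltransferase of histone mRNA decay that also acts on microRNA precursors, at 2.77 ± 0.37 (SE, adjusted p = 0.000291), NCBP1, the large subunit of the nuclear cap-binding complex, at 1.52, COIL, the scaffold of Cajal bodies, at 1.38, and HINFP, a factor of H4 promoters, at 1.31. SLBP, the stem-loop binding protein, was singled out after its value was seen and fell by 0.66 ± 0.17 (SE, adjusted p = 0.00948).

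Of 12 polyadenylation genes, 4 rose and 2 fell, with a median of 0.21. CSTF3, a subunit of the cleavage stimulation factor, fell by 1.71 ± 0.19 (SE, adjusted p = 0.000107), while CSTF1, another subunit of that factor, rose by 1.67 ± 0.23 (SE, adjusted p = 0.000301). PCF11, which links cleavage to termination, was at 1.24 and the nuclear poly(A)-binding protein gene PABPN1 at -0.77, and both passed.

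Histone chaperones and deposition factors showed 2 rises and 12 falls among 32 measured genes, with a median of -0.28. ASF1B, the H3-H4 chaperone of proliferating cells, fell by 1.87 ± 0.42 (SE, adjusted p = 0.00438), and RBBP4, which binds histones in several complexes, was at -1.83. CHAF1B and CHAF1A, which encode subunits of CAF-1, a complex that deposits new histones behind the fork, were at -1.62 and -1.45. RBBP4, CHAF1B and CHAF1A passed too. Of 16 S phase genes, 0 rose and 12 fell, with a median of -0.79. GINS2 of the replicative helicase fell by 2.05 ± 0.25 (SE, adjusted p = 0.000159), and the cyclin gene CCNE1 was at -1.64, the thymidylate synthase gene TYMS at -1.60 and the cyclin gene CCNA2 at -1.37, all past the threshold. MCM2, a helicase subunit gene that is also in the chaperone list, was at -1.37. On the same LTM 24 h arrays where replication-dependent histone probes were higher, S phase genes were lower than in control, and the part of the S phase genes in the histone values was not tested. Without LTM 24 h replicate 2 the calls of the S phase list numbered 6, and without it or control replicate 1 those of the chaperone list numbered 9. Without LTM 24 h replicate 2 or control replicate 2 the calls numbered 7 in the processing list and 3 in the polyadenylation list. On 9 arrays 10 rose and 6 fell in the processing list, 5 and 2 in the polyadenylation list, 6 and 13 among chaperones, and 0 and 13 among S phase genes, where 26.1% of all probes rose and 28.2% fell.

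At LTM 8 h on 9 arrays, where 14.4% of all probes rose and 15.4% fell, 1 of 16 S phase genes rose and 5 fell, and 4 of 32 chaperone genes rose and 10 fell. In the mRNA processing list 2 of 20 rose and 1 fell there, and in the polyadenylation list 1 of 12 rose and 0 fell, shares below those of all probes. At TFT 24 h, 0 genes of the 4 lists were called on 12 or on 9 arrays.

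**Figure D5:**
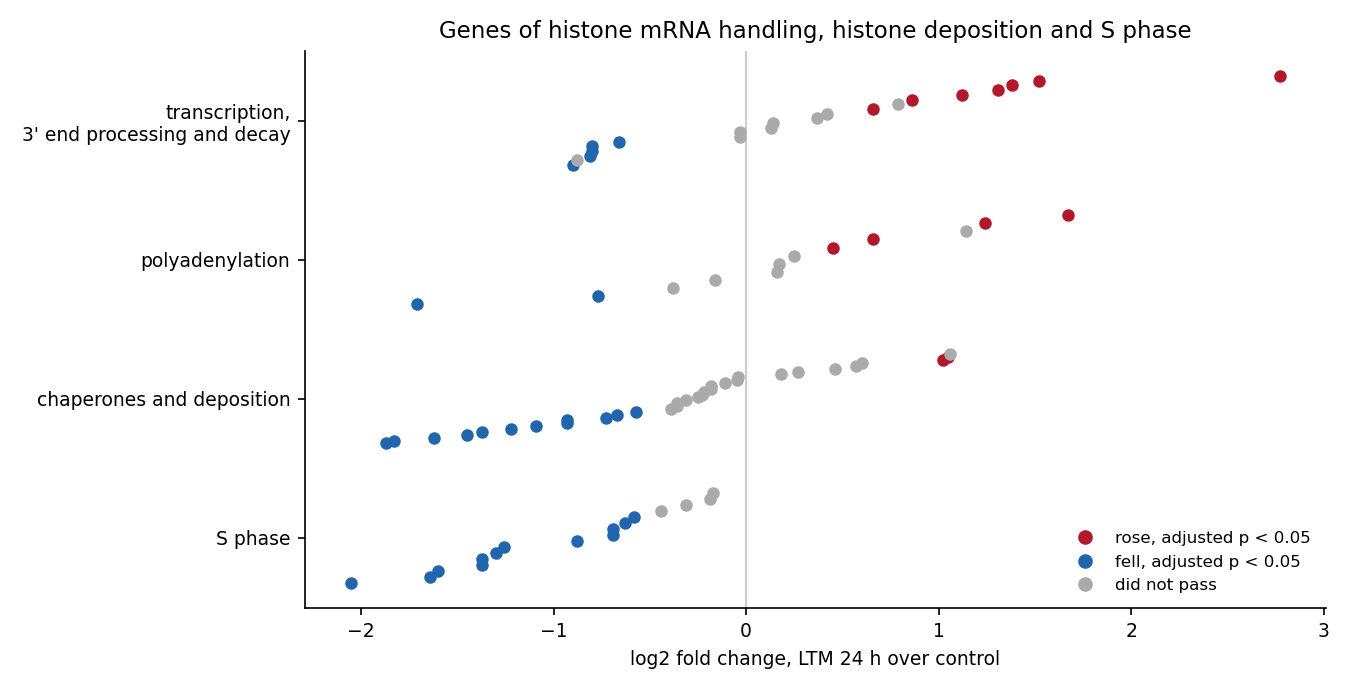
Log2 fold change, LTM 24 h over control on 12 arrays, of the measured genes of 4 lists, 1 point per gene and sorted within a list for display. Red points rose, blue points fell and grey points did not pass an adjusted p of 0.05 in limma. The S phase points lie below 0, with 12 of 16 called, and the processing list runs up to 2.77 (TUT7).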

How the data were processed

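Gene expression was measured on 12 one-colour Illumina arrays of 1 chip. Per the labels' protocols, 300 ng of total RNA was amplified and biotin-labelled. The authors deposited scanner intensities, exported from GenomeStudio per the submitters' processing notes (its version is not given in the sources used here). Negative entries made up 27.3% to 29.3% of each array, so background had been subtracted before deposit. A detection p-value per probe was deposited beside each intensity, per the file headers. A processed table of 38223 probes, also deposited as linear intensities, was used only as an alternative. Its column medians were 23.8 and 23.5 (LTM 24 h), 24.7, 24.5 and 24.5 (LTM 8 h), 24.2 and 25.0 (TFT 24 h), 25.2, 25.0 and 24.0 (TFT 8 h), and 24.3 and 24.4 (control). Its background correction, normalization and choice of probes are unknown.

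Intensities were corrected and quantile-normalized with neqc of limma 3.58.1 (R 4.3.3, offset 16, log2 scale). Probes detected at p under 0.05 on at least 2 arrays entered a limma fit of group means (lmFit, eBayes, two-sided moderated test, 7 residual degrees of freedom on 12 arrays, 4 on 9), with Benjamini-Hochberg adjustment over all 24325 probes and a threshold of 0.05. The fit was tested on simulated data. The number of arrays limits the precision. Symbols came from the platform's probe-gene table, in which 27004 probes had 1 symbol, 4 had several and 11215 processed-table probes were not listed. Of the probes with 1 symbol, 26970 matched RefSeq (GRCh38.p14), and 1 several-gene histone probe was left out.

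Full values are given for the 6 replication-dependent and 6 variant genes with the largest called change for LTM 24 h against control by their brightest probe, plus H2AZ1, H2AX, H3-3A and H3-3B, and from each related list for the 4 genes with the largest called change. Members and lists were chosen with earlier results of these data known. Replicate numbers were not used to pair the samples in the fit of group means. Of 21 same-numbered pairs, the correlations of deviations from group means ran from -0.53 to 0.63, and 4 were above 0.1. These values cannot decide whether the numbers pair the samples. In the smallest groups the deviations are mirror images, and the arrays that stood apart from their labels enter the others.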

Additional observations from a re-analysis of the deposited data

Results flagged for a closer look

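The change of histone probes between 8 h and 24 h differed between the drugs in a test of the difference itself. In limma on 12 arrays 18 of 61 probes passed the threshold, where 11.4% of all probes were higher under LTM and 11.1% lower. They were 16 of 44 replication-dependent probes, all higher, and 2 of 17 variant probes, both lower. The variant share was near that of all probes. The log2 change under LTM minus that under TFT was 4.37 for H4C8, 3.61 for H4C14, 3.19 for H2BC18, -1.0 for H2AX and -1.03 for H2AZ2. The value of H4C8 rests partly on background, since it was detected on neither TFT 24 h array and on 1 of 3 TFT 8 h arrays. Both variant calls were lost when either LTM 24 h array or either TFT 24 h array was left out. On 9 arrays the differences were 2.77 for H4C8, 1.90 for H4C14, 1.90 for H2BC18 and -0.66 for H2AX, all past the threshold, and -0.73 for H2AZ2, which did not pass (adjusted p = 0.0671 in limma). The 8 h groups of both drugs and the TFT 24 h group each hold an array that stood apart from its label. No group had enough arrays for a test of single outlying arrays. The replication-dependent median was low on LTM 8 h replicate 1 (-0.08) and high on TFT 8 h replicate 3 (0.44), relative to their groups. Each raises the difference for this class on 12 arrays.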

How the results depend on the processing

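Of the alternatives for single named genes, 193 kept the direction and the side of the threshold, 17 lost the call and 0 reversed. With 1 array left out in turn, the histone calls were 24 to 29 for LTM 24 h against control (38 on 12 arrays), 27 to 30 against TFT 24 h (41), 14 to 29 against LTM 8 h (27), 0 to 6 for LTM 8 h against control (0), and 11 to 21 for the difference of the drugs in change with time (18), where leaving out TFT 24 h replicate 2 gave the lowest count. The replicate block gave 41 calls for LTM 24 h against LTM 8 h and 28 for the difference of the drugs in change with time, and changed no other count of histone calls by over 1.5 times. Whether the numbers pair the samples could not be settled.

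On 9 arrays 28 histone probes were called at LTM 8 h and 6 at TFT 8 h, against 0 each on 12. The arrays left out were chosen by their expression values, so these counts are a description. The split of LTM 24 h by class was added after seeing the data. Replication-dependent probes that fell numbered 1 on 9 arrays and in a fit of the 2 groups alone, and 2 without the detection filter. With 1 array left out, 20 to 23 rose and 2 to 8 variant probes fell. Variant probes that rose numbered 1 without normexp, with median scaling and without the filter, and 0 to 1 with an array left out. The causes were not tested. Probes near background, with 14 replication-dependent probes undetected in control, give bounds only.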
